A study of Mus musculus with 8 samples.

Results

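The autophagy machinery of mouse Paneth cells was described here through 36 genes, found in the count table by matching Ensembl gene IDs to the gene symbols of a list written by function. All 36 genes were found, among 55414 gene IDs in the table, and all 36 were expressed enough to be tested. The cells came from 8 C57BL/6J mice with no engineered allele named in the labels, and the sources used here give neither age nor sex. In the water group, 4 mice drank Milli-Q (ultrapure) water, and in the zinc group 4 mice drank water with 25 mM ZnSO4, both for 7 days. Paneth cells were then collected by FACS from a cell suspension of each small intestine, and stranded mRNA libraries were sequenced, 1 library per mouse.

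Autophagy encloses cytoplasm in a double membrane, the phagophore, and delivers it to the lysosome. The ULK kinase complex starts the process, a PI3-kinase complex marks the membrane, Atg9 vesicles and Atg2 proteins supply lipid, and a conjugation system couples Atg8 proteins (LC3 and GABARAP) to the membrane, where cargo receptors dock. In Paneth cells autophagy genes are known for their link to granule secretion: mice with reduced Atg16l1 or without Atg5 or Atg7 in the gut epithelium have abnormal Paneth cell granules, and a human variant of ATG16L1 is a risk factor for Crohn's disease.

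Library totals ran from 20760764 to 24117111 counts. All 10 listed Paneth cell markers, led by Defa24 and Lyz1, were abundant, and together they took 47.1 to 56.4% of counts with water and 44.6 to 58.1% with zinc. The sort was not free of transcripts listed for other lineages. The 6 goblet cell genes summed to 8130 to 13700 CPM (counts scaled by library total and TMM factor) with water and 10200 to 13300 CPM with zinc. This sum was led by Spink4 at a mean of 6960 CPM and Muc2 at 2175 CPM. Clca1 ran from 5.52 to 238 CPM and Zg16 from 8.25 to 172 CPM, both highest in replicate 4 of each group. The 4 stem cell genes, nearly all of it Olfm4, summed to 4360 to 5730 CPM with water and 3050 to 4460 CPM with zinc. The 10 enterocyte genes summed to 326 to 431 CPM with water and 362 to 411 CPM with zinc, most of it Anpep at a mean of 280.2 CPM, while Alpi had a mean of 0.236 CPM. Sis, another gene of this list, had 2.03 ± 0.572 CPM in water mice and 11.5 ± 8.69 CPM in zinc mice (log2 fold change 2.49, unadjusted p = 0.00656, edgeR adjusted p = 0.852), with overlapping groups. The 6 enteroendocrine genes summed to 41.0 to 105 CPM, and the 4 tuft cell genes to 12.2 to 112 CPM. The 5 immune genes reached at most 1.30 CPM and the 4 stromal and endothelial genes at most 1.31 CPM, with Cd3e and Col1a1 at 0 counts in all 8 libraries. The part of these cells in the values below was not tested, and in bulk libraries fewer cells of a type and less RNA per cell cannot be told apart.

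The response to zinc itself was read from metallothionein genes, which metals switch on. Mt1 rose from 20.9 ± 7.48 to 264 ± 109 CPM (SD, n = 4 each, edgeR adjusted p = 0.0259) and Mt2 from 3.95 ± 2.31 to 283.0 ± 116 CPM (edgeR adjusted p = 0.0198). The zinc exporter gene Slc30a1 rose from 2.51 ± 1.10 to 10.3 ± 2.31 CPM (edgeR adjusted p = 0.0198). With the replicate number as a block in the fit, Mt1 and Mt2 lost their edgeR calls, with the direction kept. The sizes held when libraries were left out, but the calls did not always. Without 1 library, log2 fold changes were 3.33 to 3.85 for Mt1, 5.82 to 6.63 for Mt2 and 1.78 to 2.18 for Slc30a1. The edgeR adjusted p of Mt1 was then above 0.05 without water replicate 1 (0.159), 2 (0.0807), 3 (0.0664) or 4 (0.126) or zinc replicate 1 (0.0612) or 4 (0.0744), that of Mt2 without water replicate 1 (0.0906), 2 (0.0807) or 4 (0.0883), and that of Slc30a1 without water replicate 2 (0.0862) or zinc replicate 2 (0.0652).

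Against this, none of the 36 autophagy genes passed the test. With edgeR's quasi-likelihood test, 0 rose and 0 fell at an adjusted p of 0.05 (0.025% and 0.0584% of all tested genes did), and 0 had an unadjusted p under 0.05. DESeq2 called 0 as well, also with 0 at an unadjusted p under 0.05. In either direction, 0.0834% of all 11988 tested genes were called and 4.65% had an unadjusted p under 0.05, so a share of 0 among 36 genes lies near the background. In no member did the 4 zinc libraries all lie on 1 side of the 4 water libraries, which was seen in 2.84% of all tested genes. Log2 fold changes (zinc over water) ran from -0.32 to 0.28, with a median of -0.05 beside 0.01 over all tested genes, and 22 estimates were below 0 and 14 above, where 48.1% of all tested genes lay below 0 and 51.9% above.

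The libraries set bounds on what could have been missed. For 35 of the 36 genes the 95% interval of the fold change excluded a 2-fold change in either direction, and for 25 it excluded a 1.5-fold change (0.585 on the log2 scale), where 82.3% and 60.0% of all tested genes had intervals this narrow. The count at 1.5-fold depends on the scaling, and was 15 with library totals only and 23 to 30 under the other alternatives. The count at 2-fold was 34 or 35 under every alternative, and 34 when water replicate 2 or any single zinc library was left out. In the main fit the exception at 2-fold was Atg9b, a low gene whose interval ran from 0.654-fold to 2.21-fold. With TMM scaling, the 11 genes not bounded at 1.5-fold were Atg14, Atg9b, Atg10, Atg16l2, Atg4a, Atg4c, Map1lc3a, Gabarapl1, Optn, Calcoco1 and Tfeb. Changes within these intervals could not be told from none with 4 mice per group. These are transcript levels, and the activity of autophagy was not measured.

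**Figure D1:**
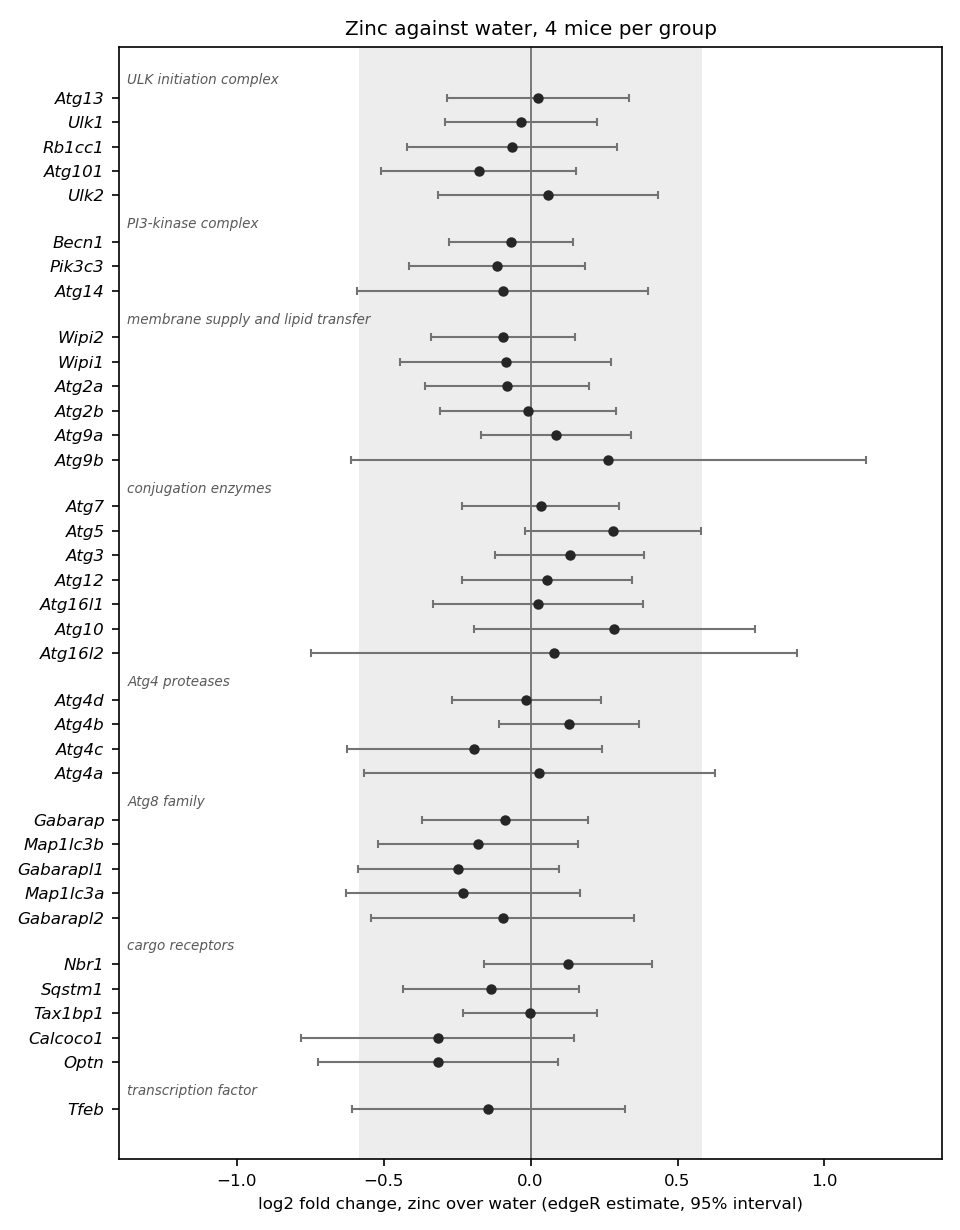
Log2 fold change of zinc over water for each of the 36 genes (x axis), ordered by role and by mean level. Points are edgeR estimates, bars are 95% intervals from 4 mice per group, and the grey band spans 1.5-fold in both directions. All intervals cross 0, and that of Atg9b reaches farthest, to 1.14.

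Together the 36 genes took a small share of the Paneth cell transcriptome. In water replicates 1 to 4 they held 0.114, 0.132, 0.149 and 0.142% of all counts, and in zinc replicates 1 to 4 they held 0.110, 0.139, 0.131 and 0.147%. The group means of 0.134% ± 0.0153 and 0.132% ± 0.0163 (SD, n = 4 each) differed by less than the spread between mice. The Wilson 95% interval of the lowest share, in zinc replicate 1, ran from 0.108 to 0.111%, so this spread was far above counting error. The order of the libraries depended on the scale. The replicate 1 libraries had the lowest shares of autophagy counts in both groups, but on the TMM scale they had the highest sums of their groups, 1495 CPM with water and 1415 CPM with zinc, against 1174 CPM in water replicate 4 and 1204 CPM in zinc replicate 4. Beside this, α-defensin (Defa) genes took 39.9% and 38.5% of counts in the replicate 1 libraries and 29.2% and 27.9% in the replicate 4 libraries, with TMM factors of 0.764 and 0.775 against 1.21 and 1.23. The part of the Defa share in these levels was not tested. With Defa genes left out before scaling, 0 of the 36 genes were called and the median log2 fold change was -0.05.

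**Figure D2:**
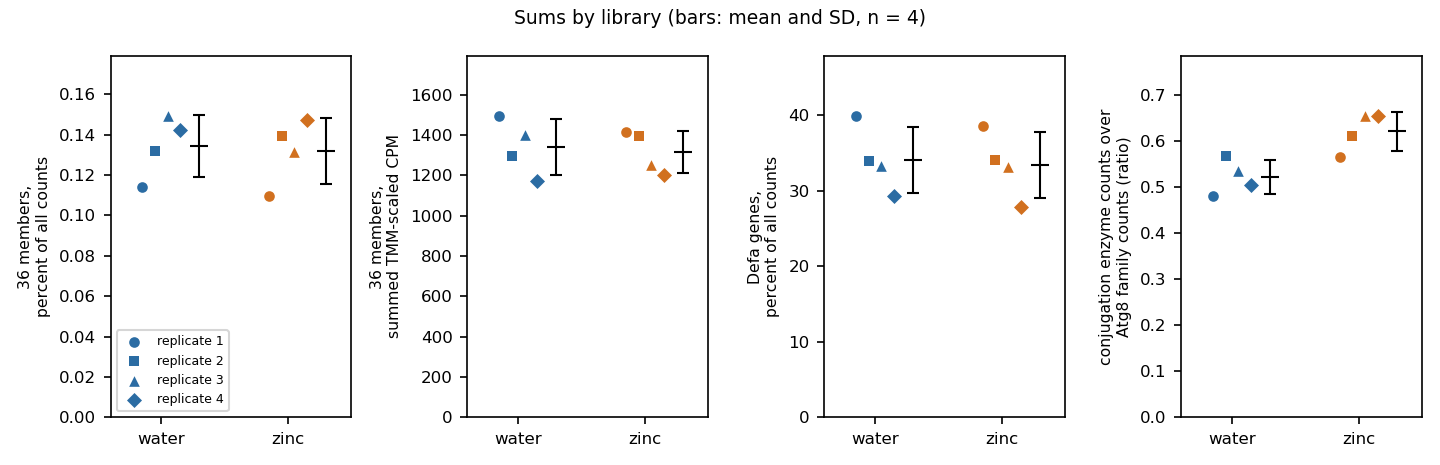
From left to right, the share of counts in the 36 genes (percent), their summed TMM-scaled CPM, the share of Defa genes (percent), and the ratio of conjugation enzyme counts to Atg8 family counts, each in 4 water and 4 zinc libraries. Symbols mark the replicate number, and bars are the mean and SD. The replicate 1 libraries are lowest in the first panel and highest in the second, and in the last panel zinc spans 0.564 to 0.654 and water 0.480 to 0.566.

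The cargo receptors took 37.5% of all counts in the 36 genes. Sqstm1 (ENSMUSG00000015837, GRCm39 chromosome 11, 50089572 to 50107684, minus strand), which encodes p62, a receptor that binds ubiquitinated cargo and is itself degraded by autophagy, stood at 233, 182, 202 and 153 CPM in water replicates 1 to 4 and at 197, 193, 170.1 and 140 CPM in zinc replicates 1 to 4. The groups overlapped, and replicate 4 was the lowest library in both. Its log2 fold change was -0.13 (SE 0.14, 95% interval -0.43 to 0.16). Nbr1 (ENSMUSG00000017119, chromosome 11, 101442962 to 101472781, plus strand), a related ubiquitin-binding receptor, was found at 206, 182, 187 and 133 CPM with water and 200.2, 219, 179 and 176 CPM with zinc. Its estimate was above 0 (log2 fold change 0.13, SE 0.14), again with overlapping groups. Tax1bp1, another receptor of this kind, was the steadiest of the 5, from 102 to 125 CPM over all 8 libraries and with a log2 fold change of 0.00 (SE 0.11, interval -0.23 to 0.23).

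The other receptors had fewer than 25 CPM in each library. Optn, encoding optineurin, an LC3-binding receptor in mitophagy and in the clearance of bacteria, had 6.07, 6.44, 7.53 and 8.401 CPM with water and 4.75, 6.90, 6.08 and 5.16 CPM with zinc. Calcoco1, encoding a receptor for the turnover of endoplasmic reticulum, had 14.1, 10.7, 21.5 and 13.6 CPM with water and 15.02, 14.3, 9.995 and 8.96 CPM with zinc. These 2 genes had the lowest estimates of all 36, with log2 fold changes of -0.31 (SE 0.19, unadjusted p = 0.122, edgeR adjusted p = 0.998) and -0.32 (SE 0.22, unadjusted p = 0.168, edgeR adjusted p = 0.998), and neither passed the test. The estimate of Calcoco1 rested in large part on water replicate 3, the only library above 20 CPM, without which its log2 fold change was -0.09, while that of Optn was -0.29.

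The Atg8 family took 19.6% of the counts. These small ubiquitin-like proteins are attached to the phagophore lipid phosphatidylethanolamine and recruit receptors and cargo. Gabarap (ENSMUSG00000018567, chromosome 11, 69881888 to 69886109, plus strand) had the highest level per kilobase of the family, and stood at 219, 186, 159 and 160 CPM with water and 204, 172, 146 and 160 CPM with zinc. The replicate 1 library was the highest in both groups, and the log2 fold change was -0.09 (SE 0.13, interval -0.37 to 0.20). Map1lc3b encodes LC3B, the protein most often used to follow autophagy, but only its mRNA was counted here. Map1lc3b had 52.5, 34.0, 49.6 and 40.5 CPM with water and 51.0, 39.1, 34.1 and 32.0 CPM with zinc (log2 fold change -0.18, SE 0.16). Gabarapl1 stood at 32.8, 22.3, 35.6 and 31.2 CPM with water and at 33.1, 25.6, 20.7 and 23.6 CPM with zinc. Its log2 fold change of -0.25 (SE 0.16, unadjusted p = 0.148, edgeR adjusted p = 0.998) was the lowest of the family. Map1lc3a (12.1 ± 1.45 against 10.3 ± 2.92 CPM) and Gabarapl2 (6.501 ± 1.34 against 6.10 ± 1.36 CPM, SD, n = 4 each) had the fewest counts. All 5 estimates of the family lay below 0, from -0.25 to -0.09, and 0 of 5 passed the test.

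The conjugation system attaches the Atg8 proteins. Its 7 genes are listed here as conjugation enzymes, although not all of them encode enzymes. Atg7 is the activating enzyme, Atg3 and Atg10 carry Atg8 proteins and Atg12, and the Atg12-Atg5 conjugate with Atg16l1 places Atg8 proteins on the membrane. All 7 estimates of this group lay above 0, from 0.03 to 0.28, with 0 of 7 past the test. Atg5 (ENSMUSG00000038160, chromosome 10, 44142076 to 44240308, plus strand) had 41.1, 35.7, 26.9 and 29.2 CPM with water and 46.1, 42.3, 33.5 and 39.4 CPM with zinc. The zinc libraries lay higher on average, 40.3 ± 5.29 against 33.2 ± 6.48 CPM (SD, n = 4 each), but the groups overlapped. It had the smallest p of the 36 genes (log2 fold change 0.28, SE 0.14, interval -0.02 to 0.58, unadjusted p = 0.0638, edgeR adjusted p = 0.998). With the replicate number as a block in the fit, its unadjusted edgeR p was 0.00834 (edgeR adjusted p = 0.461).

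Atg7 (ENSMUSG00000030314, chromosome 6, 114620044 to 114837576, plus strand) stood at 52.8, 49.0, 45.7 and 44.1 CPM with water and at 61.2, 49.3, 42.0 and 43.7 CPM with zinc. Zinc replicate 1 was the highest library and the other 3 zinc libraries lay within or below the range of water, with a log2 fold change of 0.03 (SE 0.13, interval -0.23 to 0.30). Atg16l1 (ENSMUSG00000026289, chromosome 1, 87683592 to 87720150, plus strand) was lower, at 12.2, 12.4, 11.2 and 8.59 CPM with water and 13.8, 11.6, 10.7 and 9.15 CPM with zinc. Both groups covered nearly the same range, and the log2 fold change was 0.03 (SE 0.17, interval -0.33 to 0.38). The other 4 genes of the group were Atg3, Atg12, Atg10 and Atg16l2, with log2 fold changes of 0.13, 0.06, 0.28 and 0.08. Atg16l2, a homologue of Atg16l1, rested on 11 to 60 counts per library and was the most variable of the 36 genes between mice.

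The opposite estimates of these groups can be set against each other without any scaling. In water replicates 1 to 4 there were 0.480, 0.566, 0.535 and 0.504 counts of conjugation enzymes per count of the Atg8 family, and in zinc replicates 1 to 4 there were 0.564, 0.610, 0.654 and 0.653. The groups overlapped only through water replicate 2 and zinc replicate 1. This ratio was formed after the estimates had been seen and was not tested. Gabarap held most of the Atg8 counts in each library. The signs were not stable when libraries were left out. Without both replicate 1 libraries, 4 of 7 genes of the conjugation group were above 0, while all 5 Atg8 genes were below 0. Without water replicate 4, and without zinc replicate 1, 5 of 7 genes of the conjugation group were above 0. Without water replicate 1, and without water replicate 2, 4 of 5 Atg8 genes were below 0.

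In the groups that act earlier, too, no gene passed the test. In the ULK complex the regulatory subunit gene Atg13, with the highest level per kilobase of the 5, had 60.5 ± 13.02 CPM in the water group and 61.5 ± 7.78 CPM in the zinc group (SD, n = 4 each). The kinase gene Ulk1 had 27.9 ± 3.52 against 27.3 ± 2.10 CPM and the scaffold gene Rb1cc1 16.7 ± 4.39 against 16.0 ± 1.84 CPM. The smallest unadjusted p of the 5 belonged to Atg101, a partner of Atg13 (log2 fold change -0.18, SE 0.16, unadjusted p = 0.279, edgeR adjusted p = 0.998). In the PI3-kinase complex, Becn1 (ENSMUSG00000035086, chromosome 11, 101176769 to 101193122, minus strand), encoding the scaffold Beclin 1, varied least of all 36 genes. It had 61.6, 53.7, 58.2 and 56.8 CPM with water and 56.1, 53.5, 54.9 and 55.4 CPM with zinc. The highest library was 1.152 times the lowest, and the log2 fold change was -0.07 (SE 0.10, interval -0.28 to 0.15). The catalytic subunit gene Pik3c3 had 17.7 ± 3.11 against 16.4 ± 1.08 CPM (log2 fold change -0.12, SE 0.14), and Atg14, the subunit that directs the complex to the phagophore, 6.32 ± 1.87 against 5.95 ± 1.34 CPM.

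Among the genes of membrane supply, Wipi2 and Wipi1 encode proteins that read the lipid made by the PI3-kinase. Wipi2 had 38.8 ± 4.81 CPM in water mice against 36.3 ± 2.03 CPM in zinc mice (SD, n = 4 each, log2 fold change -0.09, SE 0.12), and Wipi1 29.8 ± 7.02 and 28.1 ± 5.15 CPM (log2 fold change -0.08, SE 0.17). The lipid transfer genes Atg2a and Atg2b had log2 fold changes of -0.08 and -0.01, and the scramblase gene Atg9a had 0.09. Atg9b was low, with 14 to 45 counts per library. The Atg4 proteases trim Atg8 proteins before conjugation and release them afterwards. Atg4d (31.8 ± 2.59 against 31.5 ± 3.66 CPM) and Atg4b (26.9 ± 2.41 against 29.4 ± 0.978 CPM, log2 fold change 0.13, SE 0.11, unadjusted p = 0.266, edgeR adjusted p = 0.998) held most of the counts of the 4 proteases. Tfeb, encoding a transcription factor that switches on autophagy and lysosome genes, had 8.44, 6.87, 4.65 and 7.87 CPM with water and 7.84, 6.37, 6.44 and 4.58 CPM with zinc. The groups overlapped, and the log2 fold change was -0.14 (SE 0.22, interval -0.61 to 0.32).

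**Figure D3:**
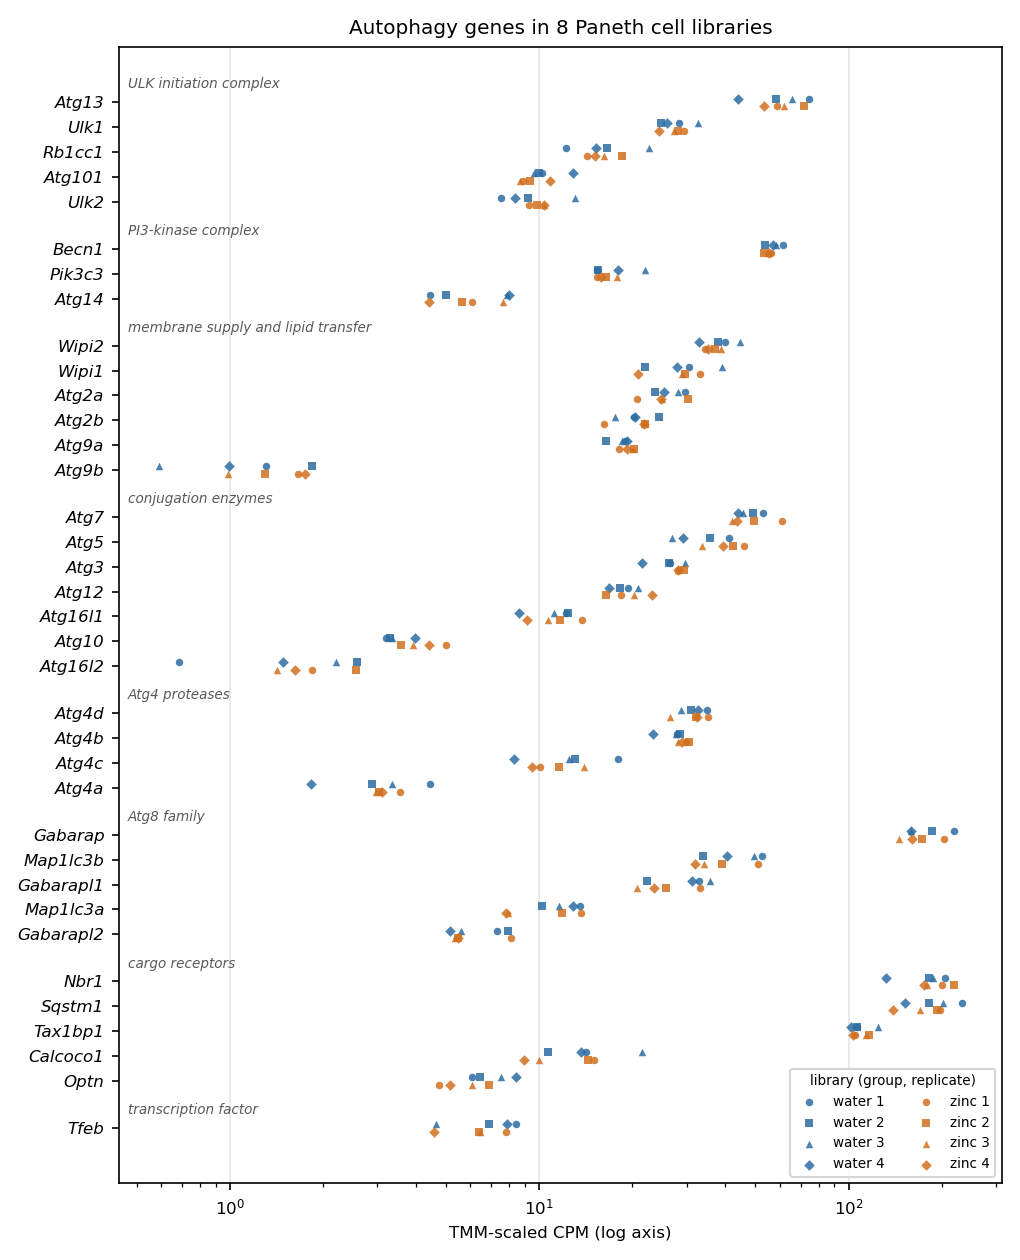
TMM-scaled CPM (x axis, log scale) of the 36 genes in each of the 8 libraries, by role. Blue symbols are water, orange symbols are zinc, and the symbol shape marks the replicate number. Levels run from 0.592 CPM (Atg9b, water replicate 3) to 233 CPM (Sqstm1, water replicate 1), and the colours overlap in every row.

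The spread between mice was like that of other genes of this abundance. The SD of log2 CPM within groups, which sets what a comparison can show, had a median of 0.197 over the 18 members between 9.98 and 37.0 CPM and of 0.198 over the 4397 tested genes in this range. It was largest for the low genes Atg16l2 (0.607) and Atg9b (0.510), then for Calcoco1 (0.393) and Atg14 (0.381), and smallest for Becn1 (0.0614) and Atg9a (0.0876).

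Levels were compared between genes as CPM per kilobase of merged exons. Gabarap led with 77.8 CPM per kilobase ± 11.2 (SD, n = 8), above the ranges of all other members. Nbr1 (23.6 ± 3.29) and Sqstm1 (22.4 ± 3.60) came next and did not differ beyond their spread. Tax1bp1 (9.47 ± 0.682), Atg5 (8.91 ± 1.61) and Map1lc3a (8.50 ± 1.77) followed, with overlapping ranges. No break set them apart from Becn1 (7.64) and Gabarapl1 (7.60), whose ranges overlapped those of Atg5 and Map1lc3a. The lowest were Atg9b (0.331) and Atg16l2 (0.206). The length used matters here. With the length of the Ensembl canonical transcript, Gabarap was still first (99.6 CPM per kilobase), but Sqstm1 (56.2) came before Nbr1 (39.6), and Map1lc3b (46.8) ranked 3 in place of 11, because its merged exons are much longer (7617 bases) than its canonical transcript (889 bases).

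Where 2 members do like work, their ratio of levels per kilobase within a library does not depend on scaling. The kinase gene Ulk1 had 2.77 to 4.43 times the level per kilobase of Ulk2, Atg2a 1.77 to 2.92 times that of Atg2b, and Atg9a 4.79 to 16.4 times that of Atg9b. Atg16l1 had 2.97 to 11.2 times the level of Atg16l2, where the top value came from water replicate 1, with 11 counts of Atg16l2. Relative to Gabarap, the level of Gabarapl1 was 0.0731 to 0.137 and that of Gabarapl2 0.0164 to 0.0221. The order of Map1lc3b and Map1lc3a turned with the length used, with a mean ratio of 0.644 by merged exons and 3.45 by canonical transcripts, and that of Atg4b and Atg4d turned as well (0.745 and 1.25).

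None of the 11 ratios differed between zinc and water beyond the spread between mice. Differences in mean log2 ratio (zinc minus water) ran from -0.25 for Atg9a over Atg9b to 0.30 for Atg4b over Atg4c, and the groups overlapped in all 11 pairs. The smallest exact two-sided permutation p was 0.286, with 0.943 after adjustment over the 11 pairs. A design of 4 against 4 libraries allows an unadjusted p as small as 0.0286. A single pair at that p would still miss the adjusted threshold over the 11 pairs. The adjusted p therefore cannot decide whether a single ratio changed, and the unadjusted p and the overlap are what the comparison rests on. The ratio of Gabarapl1 to Gabarap was spread more widely with water (0.0914, 0.0731, 0.137 and 0.12) than with zinc (0.0994, 0.0909, 0.0865 and 0.0899), a difference in spread that was not tested.

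**Figure D4:**
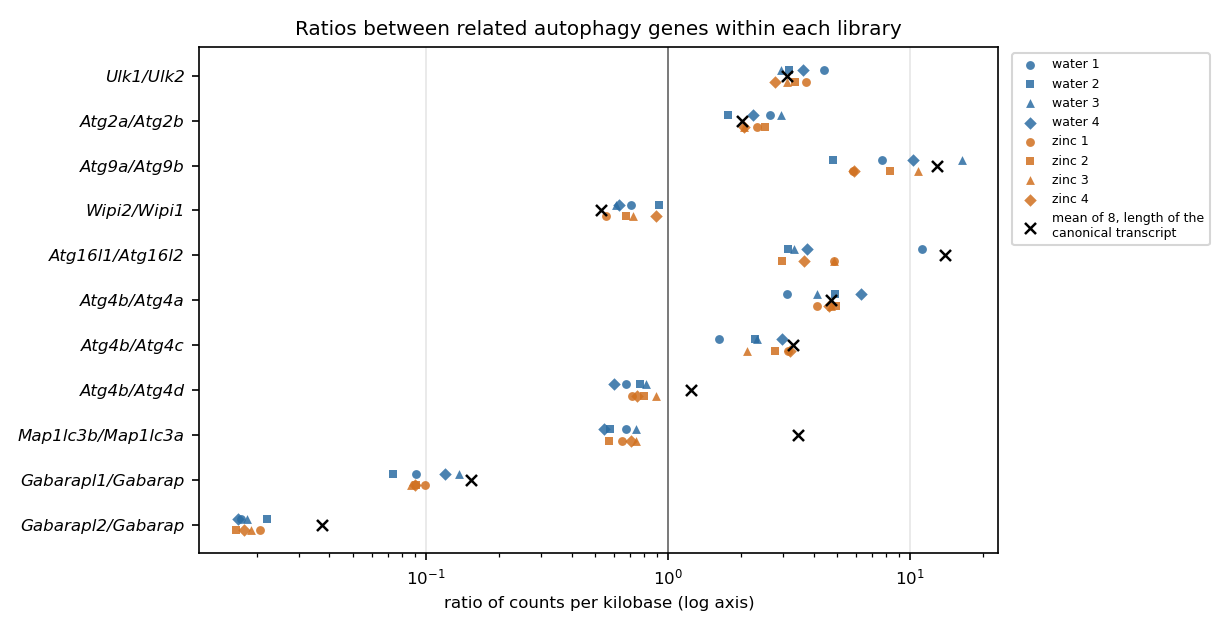
Ratios of counts per kilobase of merged exons (x axis, log scale) for 11 pairs of related genes in 4 water (blue) and 4 zinc (orange) libraries, with shape marking the replicate number. Crosses are the mean of all 8 libraries by canonical transcript length. Colours overlap in each pair, and the crosses of Map1lc3b/Map1lc3a (3.45) and Atg4b/Atg4d (1.25) lie on the other side of 1 from the points.

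The rest of the pathway was read from 4 further lists with 56 genes, of which 55 were tested. The untested gene was Calcoco2, a receptor for bacteria in human cells, at 0 counts in each of the 8 libraries (a 0 leaves room for 0.115 to 0.188 CPM, or 3 counts, by counting error only). None of the 55 passed the test (0 rose, 0 fell), and 1 had an unadjusted p under 0.05, a share below the 4.65% of all tested genes. The list medians were 0.02 for 14 upstream kinases and regulators, -0.08 for 10 phagophore factors, -0.02 for 15 selective autophagy receptors and adaptors and 0.00 for 16 genes of fusion with the lysosome, beside 0.01 over all genes. Pink1, the kinase that marks damaged mitochondria for autophagy, had 48.2, 42.1, 53.0 and 41.9 CPM with water and 43.3, 36.9, 31.8 and 36.6 CPM with zinc. Only zinc replicate 1 lay inside the range of water, and the log2 fold change was -0.32 (SE 0.12, unadjusted p = 0.019, edgeR adjusted p = 0.998).

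The smallest unadjusted p of the other lists belonged to Prkaa1, a catalytic subunit of the energy sensor AMPK (25.6 ± 2.10 against 29.6 ± 2.51 CPM, log2 fold change 0.21, SE 0.12), Pik3r4, the regulatory partner of Pik3c3 (18.3 ± 1.53 against 15.2 ± 2.20 CPM, log2 fold change -0.26, SE 0.14) and Snap29, a SNARE of autophagosome fusion (23.5 ± 3.75 against 27.4 ± 3.14 CPM, log2 fold change 0.22, SE 0.14), with SD over n = 4 each. The edgeR adjusted p of each was 0.998. In 1 of the 55 genes the groups did not overlap, a share below the 2.84% of all tested genes. This was Ncoa4, the receptor for ferritin, named after its values were seen, with 3.13, 3.27, 3.05 and 2.06 CPM with water and 3.92, 3.52, 4.50 and 3.45 CPM with zinc. Its log2 fold change was 0.42 (SE 0.25, interval -0.10 to 0.95), and it did not pass the test (unadjusted p = 0.107, edgeR adjusted p = 0.998).

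The promoters of the 36 genes were searched for the core letters of elements tied to autophagy genes and to zinc. The window ran from 250 bases before to 50 bases after the start of the Ensembl canonical transcript (GRCm39, both strands searched). CACGTG, the core of the element that Tfeb binds, was found in 3 of 36 windows (8.33%), those of Atg14, Atg5 and Gabarap, and in 7.85% of 21627 protein-coding promoters. TGCGCNC or TGCACNC, the core of the metal response element bound by the zinc sensor Mtf1, was found in 14 of 36 windows (38.9%) and in 27.4% of all. The windows of Mt1, Mt2 and Slc30a1, which rose with zinc, held this core in 3, 2 and 2 places. Among the 14 members with a match, Map1lc3b and Atg4b held it in 3 places each, Atg7 and Atg16l1 in 2 each and the remaining 10 in 1 each. The Map1lc3b places that begin at -19 and -16 bases lie on opposite strands and overlap, so they are not separate sites. A match is a description of the letters only. The matches in the 3 CACGTG promoters, and for the metal response core in Atg5, Map1lc3b and Mt1, are shown on the strand of the gene, with the matched letters in capitals. Atg5 was chosen for its p, the smallest of the members, and Map1lc3b to be set beside Mt1, which rose with zinc, because both matches begin at -16 bases from the start. This shared position was picked after the matches were seen, and no meaning of it was tested. The other Mt1 matches begin at 9 and 27 bases, after the annotated start. All these positions are counted from the start of the canonical transcript. Whether Mt1 transcripts begin there in these cells was not tested, so the matches may lie elsewhere relative to the start in use.
Atg5, CACGTG, chr10:44144309-44144338, plus strand: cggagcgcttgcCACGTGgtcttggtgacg
Gabarap, CACGTG, chr11:69881834-69881863, plus strand: ttcgccacccgcCACGTGattctccgccct
Atg14, CACGTG, chr14:47805875-47805904, minus strand: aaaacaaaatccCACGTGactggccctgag
Atg5, metal response core, chr10:44144244-44144272, plus strand: ccctgtgtgtcTGCGCACgctcaggagca
Map1lc3b, metal response core, chr8:122317073-122317101, plus strand: gcttgggcgcgTGCACGCttgcgcgccgc
Mt1, metal response core, chr8:94905683-94905711, plus strand: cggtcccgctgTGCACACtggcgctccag

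Some levels are uncertain because reads can be shared. Near-identical copies (at least 97% identity over at least 75 bases) were found for 94.9% of the Atg4a transcript, in Atg4a-ps, for 42.7% of that of Map1lc3b, in the pseudogene Gm6055, and for 20.8% of that of Gabarapl2, in Gm6051. These copies had mean counts of 0.12, 8.0 and 0.12, and the sources used here do not say how multi-mapped reads were handled. Exons of Becn1, Atg13, Gabarapl1 and Atg4d overlapped opposite-strand genes over 43.8% (Cntd1), 32.8% (Arhgap1), 31.0% (1700101I11Rik) and 30.2% (Kri1) of their length. Those opposite-strand genes had mean counts of 24.0, 1544.5, 0.875 and 231.9, beside 1246, 1333, 615 and 696.5 for the 4 members. The library kit keeps strand, but the sources used here do not say whether the counting used it.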

How the data were processed

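RNA-seq of sorted Paneth cells from 4 water and 4 zinc mice was analysed. The values, as the authors deposited them, are raw read counts by Ensembl gene ID, with 1 column for each mouse. The submitters' processing notes name FastQC 0.12.0, STAR 2.7.0a, DESeq2 and mm39. The counting program, its strand setting, the annotation release and the treatment of multi-mapped reads are not named in any source used here. Gene symbols, coordinates and merged exon lengths were taken from GENCODE M39 on GRCm39 by gene ID, which matched 54749 of 55414 IDs and at least 99.99% of counts per library.

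The zinc and water groups were fitted with edgeR 4.0.16 (R 4.3.3), using filterByExpr (minimum count 10), TMM factors, robust quasi-likelihood fits and treatment as the only term, over 11988 genes with Benjamini-Hochberg adjustment and a threshold of 0.05. SE was derived from the log2 fold change and its F statistic, and 95% intervals use the t distribution. CPM values are TMM-scaled. SD of log2 CPM was taken on log2(CPM + 0.1). Ratios of members used counts plus 0.5 and exact two-sided permutation tests of mean differences (70 assignments). Python 3.11.15 and scipy 1.17.1 were used. The procedure was tested on simulated counts with changes of 2-fold or more, so that test does not cover smaller changes. Totals of 20760764 to 24117111 counts make 3 counts worth 0.115 to 0.188 CPM. There were no molecular identifiers, so the Wilson intervals and this floor cover counting error only.

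Alternatives were RLE factors, library totals, DESeq2 1.42.0, no low-count filter, a mean of at least 50 counts, Defa genes left out, a replicate block, each library left out, and, added after seeing the data, both replicate 1 libraries left out and canonical transcript lengths. No 2 libraries of a group agreed within sampling noise (chi-square per degree of freedom of 29.1 or more), so none was treated as a second deposit of another. This check says nothing of independence. The labels name separate mice only through the design text.

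The members, lists, pairs and motifs were chosen with earlier results of these data known. Named were all Atg8 genes and cargo receptors, in each other role group the member with the highest level per kilobase and that with the smallest p, any member past the threshold, with an unadjusted p under 0.05, with groups that do not overlap or failing the filter, Atg16l1, Atg5 and Atg7, the gene with the smallest p of each further list, and Mt1, Mt2 and Slc30a1. Other genes are named to complete their role group, or, for Ncoa4 and Calcoco2, after their values were seen.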

Additional observations from a re-analysis of the deposited data

Results flagged for a closer look

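A library far from the other 3 of its group was looked for by Dixon's test (95% level) in the 36 genes, the other named genes and the shares of counts by role. Of 104 groups, 8 held such a library, where chance gives about 1 in 20. Zinc replicate 1 stood apart 3 times: Atg2b had 16.2 CPM there while the remaining zinc mice had 21.8 to 22.0 CPM, Gabarapl2 had 8.13 CPM where the rest had 5.33 to 5.47 CPM, and Prkaa1 had 33.3 CPM where the rest had 27.9 to 28.6 CPM. In water replicate 1 the conjugation enzymes took 0.0119% of counts, against 0.0149 to 0.0152% in the other water libraries. Both replicate 1 libraries had the smallest TMM factors of the series. Atg4b had 23.3 CPM in water replicate 4, below the 27.8 to 28.4 CPM of the remaining water mice. In zinc replicate 2 Snap29 was low, at 22.7 CPM against 28.4 to 29.5 CPM, and Mt1 and Mt2 were high, at 425 and 455 CPM against at most 223 and 240 CPM. The causes of these gaps were not tested.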

How the results depend on the processing

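The count of 0 autophagy genes past the threshold, and of 0 further autophagy genes, held under all 16 alternatives fitted, and the smallest adjusted p of any of the 36 genes was 0.461. The median log2 fold change of the 36 genes stayed between -0.08 and 0.01, and was above 0 only without water replicate 3. Over all genes, the count of 10 moved to 34 with DESeq2, to 66 with no low-count filter and to 32 with the replicate block, and ran from 1 (without water replicate 2) to 15 (without zinc replicate 1) when 1 library was left out. It was 4 without water replicate 3 and 3 without zinc replicate 2. Same-numbered libraries correlated at 0.233, 0.0001, 0.127 and 0.263 in their deviations from the group means. Each of libraries 1, 3 and 4 correlated best with its own number. In both groups TMM factors rose and Defa shares fell from replicate 1 to replicate 4. The labels name no pairing, and the main fit and the permutation tests treat the mice as unpaired. Whether same-numbered mice shared a batch was not tested. The replicate block called 0 of the 36 genes, with Atg5 at a log2 fold change of 0.29 (unadjusted p = 0.00834, edgeR adjusted p = 0.461). Mt1 and Mt2 were outside the threshold with it (edgeR adjusted p = 0.379 and 0.241), and without both replicate 1 libraries (0.263 and 0.172), as was Slc30a1 with library totals as the only scaling (0.0836), all with the direction kept.

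Of the 36 genes, 19 changed sign under at least 1 alternative. Tax1bp1 was 0.00 on the log2 scale with no low-count filter (0.002) and with the replicate block (0.001), and Atg16l1 and Atg7 were -0.043 and -0.051 without both replicate 1 libraries. Among the genes of the naming rule, leaving out 1 library changed the sign of Atg13 (-0.108 to 0.137), Atg16l1 (-0.085 to 0.111), Atg4d (-0.071 to 0.056), Atg7 (-0.091 to 0.095), Gabarap (-0.184 to 0.017), Gabarapl2 (-0.261 to 0.013), Pik3c3 (-0.183 to 0.001), Tax1bp1 (-0.041 to 0.061) and Wipi1 (-0.214 to 0.066). For the log2 ratios, zinc minus water, they were seen for Atg2a to Atg2b (-0.215 to 0.026), Atg9a to Atg9b (-0.549 to 0.042), Wipi2 to Wipi1 (-0.134 to 0.111), Atg16l1 to Atg16l2 (-0.372 to 0.238), Atg4b to Atg4a (-0.125 to 0.212) and Gabarapl2 to Gabarap (-0.066 to 0.077). Of 99 values of the ratios under alternatives, 10 changed sign and 0 had an exact permutation p under 0.05, which 3 against 4 libraries cannot reach (smallest p 0.0571). An unadjusted p under 0.05 was reached by Atg5 under 5 of the 16 alternatives by Gabarapl1 under 3 and by Map1lc3b under 1, with the direction kept. Depth limits Atg9b and Atg16l2, which failed a mean of at least 50 counts.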
